A study of Drosophila melanogaster with 2 samples.

Results

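*Adh* (FBgn0000055) encodes alcohol dehydrogenase, and *Adhr* (FBgn0000056) is its immediate neighbour, the Adh-related gene. They are 2 of the 13931 genes in the deposited table. *Adh* was chosen by the TPM values of both libraries, and *Adhr* as its neighbour. The *Adh* values are therefore a description of the contrast that selected them. The study knocked down *blistered* (*bs*), the *Drosophila* ortholog of serum response factor, in developing adult muscle. The *bs* KD flies (1151>bs[RNAi KK108659]) carried the *1151-Gal4* driver and a double-stranded RNA construct of the KK library against *bs*, and the control flies (1151/+) came from crossing the same driver to *w1118*. Both were aged 3 days at 29°C. There is 1 *bs* KD library and 1 control library, each of polyadenylated RNA from the indirect flight muscles of 4 pooled females. The driver acts in the myoblasts of all adult muscles. The KK stock and *w1118* are different stocks, so knockdown and stock background cannot be told apart. The paper lists an isogenic control of the KK library among its stocks, without stating which comparisons used it.

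ADH oxidizes ethanol and other alcohols to aldehydes with NAD+ and belongs to the short-chain dehydrogenases, a family unrelated to the zinc-containing alcohol dehydrogenases of vertebrates. In *Drosophila melanogaster* it is known best from the fat body and the gut, where it allows flies to live on fermenting fruit. Its gene has a distal start, used mostly in adults, and a proximal start, used mostly in larvae. *Adhr* has no start of its own that is well established. Its coding region is reached by messages that begin at an *Adh* start and run through both genes, and the catalytic role of its product is not settled.

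The annotation places both genes on the plus strand of chromosome arm 2L, from 14615552 to 14618902 of Release 6 (BDGP6.54). The *Adh* coding region spans 14616339 to 14617241 and holds 256 codons. The *Adhr* coding region begins 306 bases downstream, spans 14617548 to 14618840 and holds 272 codons. Of the 5 annotated *Adh* transcripts, *Adh-RC* (1057 bases), *Adh-RI* (1231 bases) and the long *Adh-RF* (2080 bases) begin at the distal start. *Adh-RE* (1001 bases) and the long *Adh-RH* (2024 bases) begin at the proximal start, 715 bases downstream. The long transcripts carry both coding regions. *Adh-RF* has the same exons as *Adhr-RA*, and *Adh-RH* the same exons as *Adhr-RB*, so the annotation gives each of these messages 2 names. Only *Adhr-RC* (915 bases) lacks the *Adh* coding region. Both genes lie inside *osp*, a gene of the opposite strand, and all 4 annotated *osp* transcripts span them. None of its exons (0) overlaps an *Adh* or *Adhr* exon.

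**Figure D1:**
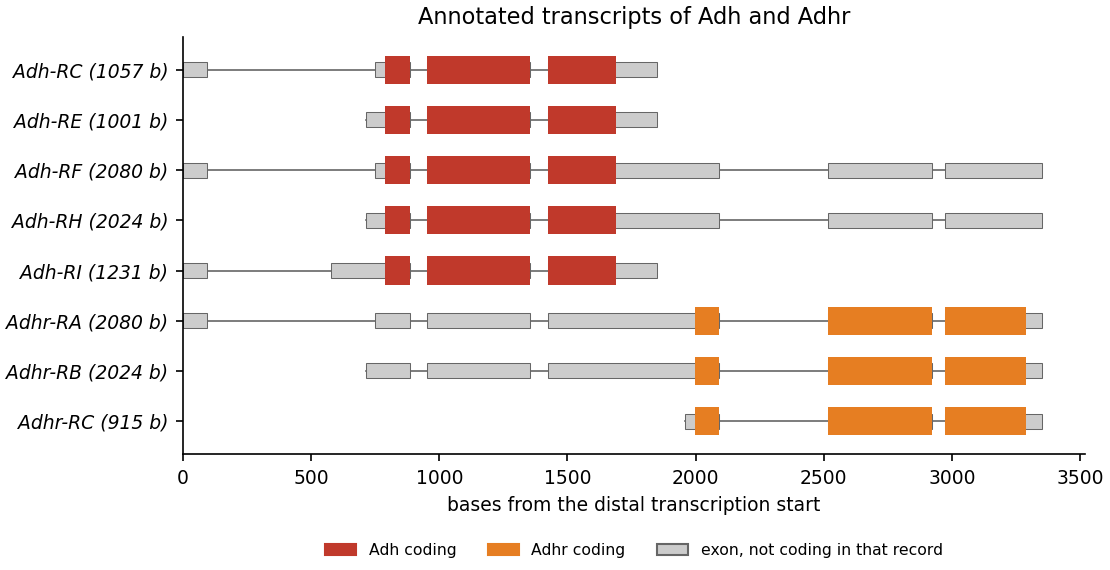
Annotated transcripts of *Adh* and *Adhr*, one per row with its length, against distance in bases from the distal start. Thick coloured boxes are coding parts, thin grey boxes the other exonic parts and lines introns. *Adhr-RA* and *Adhr-RB* repeat the exons of *Adh-RF* and *Adh-RH* and differ only in which coding region is marked.

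*Adh* stood at 4009 TPM (transcripts per 1000000 transcripts) in *bs* KD and at 1168 TPM in the control. It was 3.43-fold higher in *bs* KD, with a 95% counting interval of 3.38 to 3.48, and 1.78 higher as log2 of TPM plus 1. These values rest on 70424 estimated reads in *bs* KD and 20400 in the control. *Adh* was the 58th most abundant gene in *bs* KD, where it made up 0.401% of all TPM, and ranked 134th in the control (0.117%). Its gain of 2840 TPM was the 4th largest of any gene, after those of *Mlc1* (a myosin light chain, 6129 TPM), *fln* (flightin, a thick filament protein, 3389 TPM) and *Cyt-c-p* (cytochrome c, 3132 TPM). It made up 2.92% of the summed gain over all genes that were higher in *bs* KD.

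*Adhr* stood at 10.9 TPM in *bs* KD and 3.67 TPM in the control. The deposited table gives it 394 estimated reads in *bs* KD and 131 in the control. It was 2.98-fold higher in *bs* KD (counting interval 2.44 to 3.67). After adding 1 TPM in both libraries, which understates changes of weakly expressed genes, the log2 difference was 1.35. It was 0.88 with 5 TPM added, below 2-fold. *Adhr* ranked 2044th by TPM in *bs* KD and 3549th in the control.

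Both genes were thus higher in *bs* KD, at very different levels. *Adhr* made 0.273% of the *Adh* TPM in *bs* KD and 0.314% in the control, so that the TPM assigned to *Adh* was 366 times that assigned to *Adhr* in *bs* KD and 318 times in the control. The share of *Adhr* relative to *Adh* in *bs* KD was 0.869 times that in the control. The counting interval of this factor, 0.712 to 1.07, includes 1. It treats the reads of the 2 genes as independent counts, although their long transcripts have the same exons. It therefore cannot decide whether the changes of the 2 genes differ.

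The intervals cover counting error only. Each group is a single library, so variation between flies, dissections and library preparations was not measured and no test was possible. The libraries held 19767477 estimated reads for *bs* KD and 20955053 for the control. Genes that reached 1 TPM in either library were counted as detected (6384, or 45.8%), and as differing when the log2 change described above amounted to 2-fold. Of the detected genes 599 were higher in *bs* KD by that size (9.38%) and 386 were lower (6.05%). Both *Adh* and *Adhr* passed in the higher direction. The 1804 genes that reached 10 TPM in each library had a median log2 ratio of 0.13, and relative to it the changes were 1.65 for *Adh* and 1.23 for *Adhr*. The targeted gene *bs* itself stood at 1.80 TPM in *bs* KD and 2.75 TPM in the control, over all its transcripts. The paper states that the construct targets the *bs-RA* and *bs-RC* transcripts and not *bs-RB*. By qPCR it reported a large reduction of *bs-RA* and *bs-RC* in flight muscle, which the gene-level values do not resolve.

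**Figure D2:**
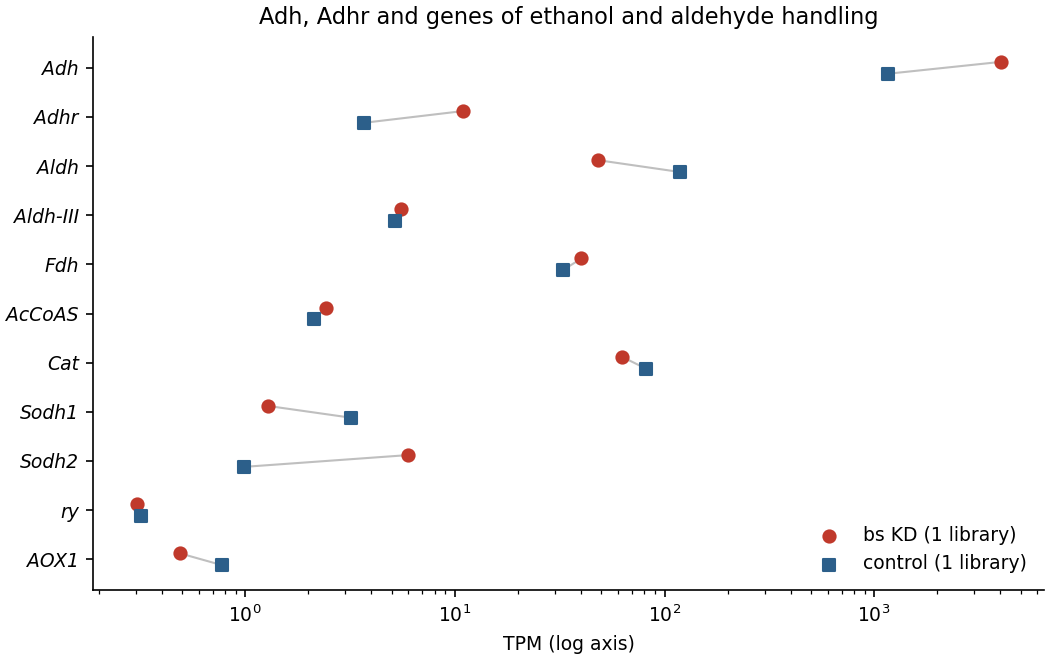
TPM of *Adh*, *Adhr* and 9 genes of ethanol and aldehyde handling on a log axis, with *bs* KD as red circles and the control as blue squares (1 library each). *Adh* lies at 4009 TPM in *bs* KD against 1168 TPM in the control, far above every other gene shown. *Aldh*, *Cat*, *Sodh1*, *ry* and *AOX1* have their points in the opposite order.

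Among abundant genes a change of this size was rare. In all, 141 detected genes (2.21%) had a larger log2 change than *Adh*, but the most abundant of them, *Thor* (the eIF4E-binding protein), reached only 503.5 TPM in *bs* KD, against 140 TPM in the control. Among the 184 genes with at least 1000 TPM in either library, *Adh*, *Hsp22* and *CG41128* (3 in all) were at least 2-fold higher, and 5 were at least 2-fold lower. The 5 genes of this abundance with changes nearest to *Adh* were all below it. *Hsp22*, a mitochondrial small heat shock protein gene, was at 1.43 (1088 TPM in *bs* KD and 404 TPM in the control). *CG41128* was at 1.00 (1923 TPM in *bs* KD and 959 TPM in the control). The other 3 encode respiratory chain subunits, with log2 changes of 0.85 for *ND-AGGG*, 0.82 for *UQCR-11* and 0.73 for *ND-MNLL*. A gap of 0.35 separates *Adh*, at the top of this order, from *Hsp22*. This place describes the values by which *Adh* was chosen. With 2 libraries, likeness of pattern is only likeness of a single ratio. The paper's list of significantly altered genes includes *Hsp22*, *CG41128* and *Thor* but neither *Adh* nor *Adhr*. That list was set by distance from a regression line within expression tiers, not by fold change.

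Because *Adh* was chosen by these same values, its place among genes that began at its level is also only a description. Of 162 other genes whose control TPM lay within 2-fold of that of *Adh*, 1 was higher by 2-fold or more (*CG41128*) and 3 were lower. Their log2 changes ran from −5.08 (*whe*) to 1.00, with a median of 0.02. *Adhr* did not lie above all genes of its level. Of 2443 other genes with control TPM within 2-fold of that of *Adhr*, 177 (7.25%) were higher by 2-fold or more, and 79 (3.23%) had a larger change than *Adhr*.

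**Figure D3:**
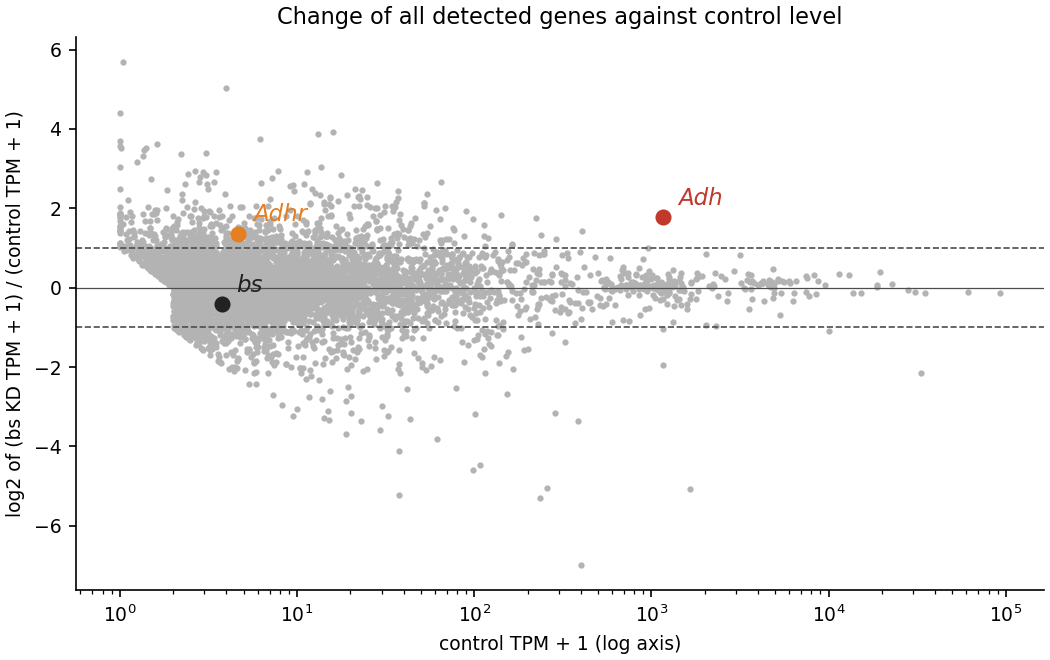
Log2 change (*bs* KD over control, 1 TPM added to each) of the 6384 detected genes, in grey, against control TPM plus 1 on a log axis. Dashed lines mark 2-fold. *Adh* (1.78) lies above all other genes of its level, *Adhr* (1.35) lies within the broad cloud of weakly expressed genes, and *bs* is marked in black.

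The deposited gene lengths were examined next, because they bear on which transcripts the reads were given to. The table lists *Adh* with a length of 213 bases in *bs* KD and 215 bases in the control. Both values are below the shortest annotated *Adh* transcript, 1001 bases. *Adhr* is listed at 732 bases in *bs* KD and 737 bases in the control, also below its shortest transcript of 915 bases. This was common in the table. The listed length was below the shortest annotated transcript for 3551 of 6314 detected genes in *bs* KD (56.2%) and for 3547 of 6310 in the control (56.2%).

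The ratio of estimated reads to TPM gives a second length, the one that the TPM values imply. For genes with a single annotated transcript and at least 10 TPM, this implied length was within 1% of the annotated length for 100% of 665 genes in *bs* KD and 100% of 591 genes in the control. The largest deviation in either library was 0.0605 bases. The scale was set on single-transcript genes, so this closeness is not an independent check. The implied length was below the shortest transcript for 5 detected genes in each library. The implied length of *Adh* was 1061 bases in *bs* KD and 1062 bases in the control, close to *Adh-RC*. The deposited TPM of *Adh* therefore rests on a full transcript length, and the listed length was not used for its level.

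The implied length limits how much of each gene's TPM can come from the long transcripts. For *Adh*, transcripts that run on into *Adhr* can make at most 5.87% of its TPM in *bs* KD and 5.94% in the control. For *Adhr* the implied length was 2070 bases in *bs* KD and 2069 bases in the control, near the 2080 bases of *Adhr-RA*. At least 99.2% of *Adhr* TPM in *bs* KD and 99.1% in the control was therefore given to *Adhr-RA* and *Adhr-RB*, which carry the *Adh* coding region. The message *Adhr-RA*, which begins at the distal start, was assigned at least 82.8% of *Adhr* TPM in *bs* KD and 81.0% in the control. The short *Adhr-RC* can hold at most 0.829% in *bs* KD and 0.915% in the control. These limits describe Salmon's assignment, and assume that the transcripts annotated now are those of the release used by the authors.

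Mean transcript length thus hardly differed between the libraries. The log2 ratio of implied lengths, *bs* KD over control, was −0.00093 for *Adh* and 0.00070 for *Adhr*. Across 6338 detected genes, 76 had an implied length that differed by more than 1.2-fold. The *Adhr* TPM was in the main given by Salmon to transcripts that also carry the *Adh* coding region. Whether the RNA molecules themselves held both coding regions was not tested. Reads over the shared exons of these transcripts cannot be assigned to one name by sequence. How such reads were divided between *Adh-RF* and *Adhr-RA* was not stated in the methods. *Adh* and *Adhr* are accordingly not independent measurements.

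Among genes with deposited values, the neighbourhood of the 2 genes was otherwise almost silent. The annotation holds 26 entries that overlap a window of 100 kb either side, and 9 of them were in the deposited table. The tRNA, noncoding RNA and transposable element entries were not in it, so their levels are unknown. Of the 9 genes, only *Adh* and *Adhr* were detected. The host gene *osp* (outspread) stood at 0.380 TPM in *bs* KD and 0.775 TPM in the control, *CG4218* at 0.121 TPM in *bs* KD and 0 in the control, and the other 5 (*CG33648*, *CG3473*, *CG42680*, *CG15282* and *CG34165*) were listed at 0 in both. In a wider window of 500 kb either side, chosen after the first was seen to be empty, 22 of 75 other genes were detected and none exceeded 87.6 TPM. Of these, 2 were higher by 2-fold or more (9.09%, beside 9.38% of all detected genes), *CIAPIN1* at 1.14 and *NC2beta* at 1.09. There were 3 that were lower, *CG34166* at −2.31, *l(2)34Fc* at −1.52 and *mol* at −1.03 (13.6%, beside 6.05% of all detected genes), and the median log2 change of the 22 was −0.27. On the whole of arm 2L, 1114 genes were detected, and 9.69% of them were at least 2-fold higher.

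The genes that act beside ADH in ethanol and aldehyde handling were mixed in direction. Of 9 listed genes, 7 were detected, 1 was at least 2-fold higher (14.3%, beside 9.38% of all detected genes), 1 was at least 2-fold lower (14.3%, beside 6.05%) and 5 were neither. With a detection rule of 10 TPM, or with 5 TPM added, 0 were higher and 1 was still lower. The median log2 change was 0.08, against 0.07 over all detected genes. *Aldh*, the mitochondrial aldehyde dehydrogenase that converts acetaldehyde to acetate, stood at 48.3 TPM in *bs* KD and 118 TPM in the control. This is a ratio of 0.408 with a counting interval of 0.385 to 0.433, in the direction opposite to *Adh*. The member that was higher was *Sodh2*, a sorbitol dehydrogenase of the zinc-containing family, at 5.98 TPM in *bs* KD and 0.987 TPM in the control. Its log2 change of 1.81 was above that of *Adh*, at a far lower level. Its paralog *Sodh1* stood at 1.28 TPM in *bs* KD and 3.20 TPM in the control, and the 2 are close copies whose reads may be divided with error.

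The other detected members of the list were within 2-fold. *Cat*, the catalase, stood at 62.7 TPM in *bs* KD and 81.4 TPM in the control. *Fdh*, the glutathione-dependent formaldehyde dehydrogenase and the fly's class III alcohol dehydrogenase, stood at 40.2 TPM in *bs* KD and 32.7 TPM in the control. *Aldh-III* was at 5.56 TPM in *bs* KD and 5.19 TPM in the control, and the counting interval of its ratio, 0.868 to 1.32, includes no difference. *AcCoAS*, which activates acetate to acetyl-CoA, was at 2.42 TPM in *bs* KD and 2.13 TPM in the control, and its interval also includes no difference. The molybdenum enzymes *ry* (xanthine dehydrogenase) and *AOX1* (aldehyde oxidase) stayed below 1 TPM in both libraries. No gene of this list exceeded the 118 TPM of *Aldh* in the control.

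Dehydrogenases of central metabolism had 10 of 11 members detected and a median log2 change of −0.23. Of these 0 were higher by 2-fold or more (beside 9.38% of all detected genes) and 0 were lower (beside 6.05%). The most abundant was *Gpdh1*, the glycerol-3-phosphate dehydrogenase of the flight muscle shuttle, at 4898 TPM in *bs* KD and 5394 TPM in the control. *Adh*, at 4009 TPM in *bs* KD and 1168 TPM in the control, was below it in both libraries. The smallest change was that of *Mdh2*, the mitochondrial malate dehydrogenase, at 0.13, and *Gdh*, the glutamate dehydrogenase, had the highest at 0.73. *Men*, the cytosolic malic enzyme, had the lowest at −0.81.

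Among relatives of ADH in the short-chain dehydrogenase family, a list of 50 genes of which 48 were found in the table, 27 were detected. Of these 1 was higher by 2-fold or more (3.70%, beside 9.38% of all detected genes) and 1 was lower (3.70%, beside 6.05%). The higher one was *CG10962*, with 18.7 TPM in *bs* KD and 8.14 TPM in the control. The lower one was *Fbp2*, a fat body protein of the third larval instar and a close relative of ADH. It stood at 0.317 TPM in *bs* KD and 2.47 TPM in the control. With a detection rule of 10 TPM, or with 5 TPM added, 0 were lower, and with estimated reads scaled to the library total 2 were lower. The median log2 change was −0.29, and the member with the smallest change among those of at least 10 TPM was *CG15629* at −0.05. The most abundant relative in *bs* KD was *Dhrs4*, at 30.5 TPM in *bs* KD and 20.3 TPM in the control. In the control it was *CG31937*, at 25.5 TPM in *bs* KD and 38.9 TPM in the control.

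**Figure D4:**
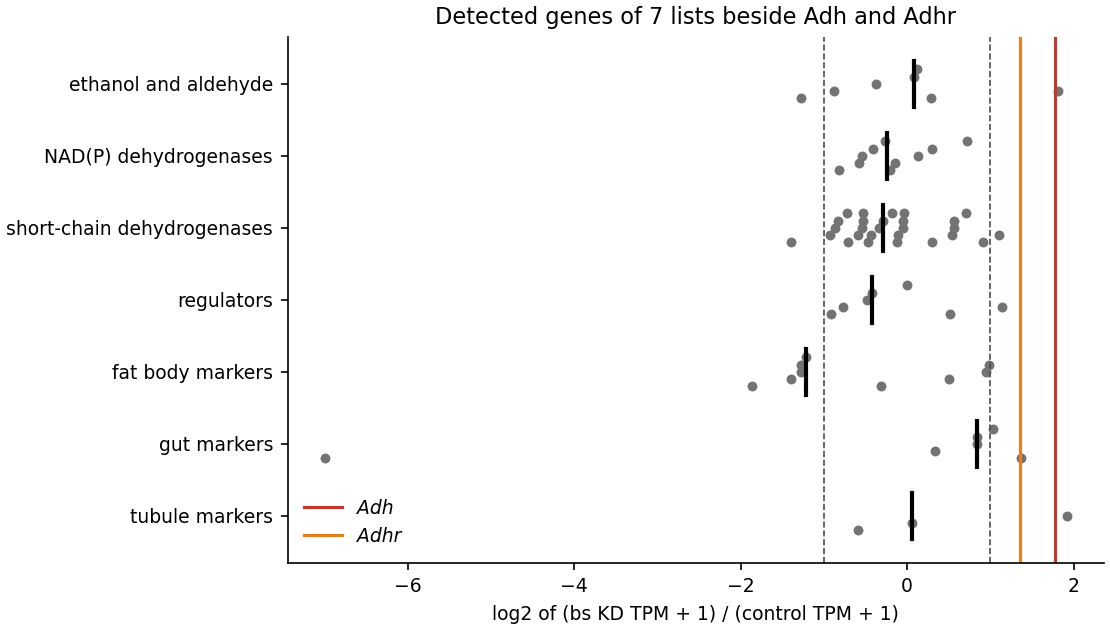
Log2 change (*bs* KD over control, 1 TPM added to each) of the detected members of 7 lists, one dot per gene, with the list median as a black bar, 2-fold as dashed lines, and *Adh* (red) and *Adhr* (orange) as vertical lines. *Sodh2* at 1.81 and *Irk3* at 1.92 are the only dots beyond *Adh*, and *Mal-B1* lies far to the left at −7.00.

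Regulators known from work on the *Adh* promoters and enhancers, listed together with *bs*, AP-1 and the GAGA factor, had 7 of 9 members detected. Of these 1 was higher by 2-fold or more (14.3%, beside 9.38% of all detected genes) and 0 were lower (beside 6.05%). With 5 TPM added 0 were higher, and with median-ratio scaling 1 was lower. The higher member was *Jra*, the fly Jun, at 16.0 TPM in *bs* KD and 6.69 TPM in the control. Its partner *kay*, the fly Fos, was at 121 TPM in *bs* KD and 84.3 TPM in the control. *Adf1*, named for its binding to the distal *Adh* promoter, was at 10.7 TPM in *bs* KD and 15.3 TPM in the control. *Aef1*, a repressor that binds the adult *Adh* enhancer, was at 4.05 TPM in *bs* KD and 7.58 TPM in the control, and *Trl*, the GAGA factor, at 9.51 TPM in *bs* KD and 18.8 TPM in the control. The nuclear receptor *ftz-f1* was at 2.13 TPM in *bs* KD and 2.14 TPM in the control. The GATA factor *srp* and the C/EBP gene *slbo*, both known to act on *Adh* enhancers in the fat body, stayed below 1 TPM in both libraries.

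*Adh* is strongly expressed in the fat body, the gut and the Malpighian tubules, so markers of these tissues were set beside it. In bulk RNA a change in the number of cells of a type and a change in RNA per cell cannot be told apart. All 13 listed muscle genes were detected, summing to 111097 TPM in *bs* KD and 125183 TPM in the control. Of these 0 were higher by 2-fold or more (beside 9.38% of all detected genes) and 1 was lower (7.69%, beside 6.05%). The lower one was *Act88F*, the flight muscle actin, at 7471 TPM in *bs* KD and 33116 TPM in the control. *Mlc2* changed least, with a log2 change of 0.01. Of 13 fat body markers 9 were detected, 0 were higher by 2-fold or more (beside 9.38% of all detected genes) and 5 were lower (55.6%, beside 6.05%), with a median of −1.21. With a detection rule of 10 TPM, or with 5 TPM added, 0 were lower, and with estimated reads scaled to the library total 2 were higher. The lower members were *FASN1* (fatty acid synthase, 0.559 TPM in *bs* KD and 4.68 TPM in the control), *Lsd-1* (a perilipin), the larval serum protein gene *Lsp2*, *Fbp1* and *Fbp2*. The yolk protein genes were mixed. *Yp1* stood at 9.31 TPM in *bs* KD and 4.35 TPM in the control, a ratio of 2.14 (counting interval 1.71 to 2.69). *Yp3* stood at 1.76 TPM in *bs* KD and 0.399 TPM in the control, a ratio of 4.42 (2.22 to 9.95). With 1 TPM added, both were just under 2-fold, at log2 changes of 0.95 for *Yp1* and 0.98 for *Yp3*. *Yp2* stood at 10.4 TPM in *bs* KD and 13.2 TPM in the control. Without *NLaz*, a lipocalin gene at 589 TPM in *bs* KD and 413 TPM in the control, the whole fat body list summed to 24.8 TPM in *bs* KD and 34.4 TPM in the control. *apolpp*, the lipophorin gene, stood at 0.210 TPM in *bs* KD and 0.230 TPM in the control.

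Gut markers had 6 of 11 members detected, with 2 higher by 2-fold or more (33.3%, beside 9.38% of all detected genes) and 1 lower (16.7%, beside 6.05%). The higher ones were digestive protease genes near the detection limit, *betaTry* at 1.80 TPM in *bs* KD and 0.0862 TPM in the control, and *Jon65Aiv* at 1.52 TPM in *bs* KD and 0.229 TPM in the control. The lower one was the maltase gene *Mal-B1*, at 2.14 TPM in *bs* KD and 399.5 TPM in the control. With a detection rule of 10 TPM, or with 5 TPM added, 0 gut markers were higher, and with median-ratio scaling 1 was higher. Without *Mal-B1* the gut list summed to 10.02 TPM in *bs* KD and 3.75 TPM in the control, and *LManVI* and *lambdaTry* were at 0 in both. Of 7 tubule markers 3 were detected. Of these 1 was higher by 2-fold or more (33.3%, beside 9.38% of all detected genes) and 0 were lower (beside 6.05%). The higher one was the potassium channel gene *Irk3*, at 3.32 TPM in *bs* KD and 0.144 TPM in the control. With a detection rule of 10 TPM, or with 5 TPM added, 0 tubule markers were higher. The tubule list summed to 11.1 TPM in *bs* KD and 8.31 TPM in the control, with the defining urate oxidase gene *Uro* at 0 in both. The part of fat body, gut or tubule RNA in the *Adh* values was not tested.

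Markers of further cell types showed no common direction. All 6 tracheal markers were detected, and 4 of them (*serp*, *verm*, *Gasp* and *Mmp1*) were at least 2-fold lower (66.7%, beside 6.05% of all detected genes), with the list summing to 44.7 TPM in *bs* KD and 175.8 TPM in the control. Of the 3 detected glial markers 1 was higher by 2-fold or more (33.3%, beside 9.38% of all detected genes) and 0 were lower. The higher one was *nrv2*, at 84.6 TPM in *bs* KD and 10.4 TPM in the control. *Gs2* changed least, with a log2 change of 0.48. The 1 detected hemocyte marker, *Ppn*, and the 1 detected neuronal marker, *elav*, lay within 2-fold, and 0 of 5 ovary markers were detected.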

How the data were processed

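Poly-A RNA of indirect flight muscle was sequenced as single-end reads of 100 bp, in 1 *bs* KD and 1 control library. The authors ran Salmon (version not stated) on the transcripts annotated in *D. melanogaster* release 6.21. For each gene the authors deposited TPM, the estimated count of reads that Salmon assigned, and a length. Estimated counts came in steps of 1.117 (*bs* KD) and 1.116 (control), for 89.6% and 90.8% of genes with 0.5 to 20 estimated reads, taking values within 0.01 of a whole step. The authors' DESeq2 columns (base mean, log2 fold change, its error, Wald statistic and p-values) were not used.

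Symbols were matched for 13842 genes, and coordinates (BDGP6.54) for 13843. Changes are log2 of TPM plus 1. Exact conditional 95% intervals (scipy 1.17.1) use estimated reads rounded to whole numbers. Implied length is estimated reads over TPM, scaled on single-transcript genes, plus 99 bases, the largest difference between listed and effective length. It was added after the listed lengths were seen. Steps were tested on simulated data.

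*Adh*, *Adhr* and the lists were chosen with earlier results of these data known. Named genes are the members, detected ethanol genes, list members past 2-fold or with the smallest change (10 TPM or more), the 5 abundant genes nearest to *Adh* and neighbours within 100 kb. Others were chosen after their values were seen. Relatives were taken from the list alone, since protein alignment was not run. The lists are ethanol and aldehyde handling, dehydrogenases of central metabolism (labelled NAD(P) dehydrogenases in the list figure), short-chain dehydrogenases and regulators. The others are markers of muscle, fat body, gut, Malpighian tubule, trachea, hemocyte, neuron, glia and ovary. Alternatives covered pseudocount, detection, scaling and length.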

Additional observations from a re-analysis of the deposited data

How the results depend on the processing

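*Adh* and *Adhr* were higher in *bs* KD under all 6 alternatives tried for each. The *Adh* log2 change of 1.78 moved beyond its counting interval to 1.87 with estimated reads scaled to the library total, 1.65 with median-ratio scaling and 1.63 with upper-quartile scaling. The *Adhr* change of 1.35 moved to 0.88 with 5 TPM added, which is below 2-fold, and was 1.58 with nothing added. As estimated reads in place of TPM, *Adhr* made 0.559% of *Adh* in *bs* KD and 0.643% in the control. Genes at least 2-fold higher numbered 368 with a detection rule of 10 TPM and 262 with 5 TPM added, and those lower 169 and 136. The 10 TPM rule also leaves fewer genes to count, so its counts cannot be set beside the 9.38% and 6.05% of all detected genes. Of 70 list counts recomputed, 53 were the same. The fat body count of 5 lower became 0 with 10 TPM or with 5 TPM added, and the higher relative *CG10962* dropped below 2-fold with median-ratio scaling and with 5 TPM added. In units of the read step the interval of the ratio was 3.37 to 3.49 for *Adh* and 2.43 to 3.73 for *Adhr*. No paired analysis was possible because each group has 1 library. Both genes rest on 1 library per group and on an unknown division of shared reads, and *Adhr* had only 131 control reads.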
